A study of Cavia porcellus with 10 samples.

Results

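The genes described here belong to nitric oxide and cyclic GMP signalling. They include the nitric oxide synthases NOS1, NOS2 and NOS3 and the soluble guanylyl cyclase subunits GUCY1A1, GUCY1A2 and GUCY1B1. The others are the membrane guanylyl cyclase NPR2, the phosphodiesterase PDE5A, and the cyclic GMP-dependent kinases PRKG1 and PRKG2. These 10 genes were chosen by symbol, ignoring case, from a table of read counts per gene symbol. All 10 were found, each on 1 line of the 17642 lines that carry a symbol. All 10 passed the filter on low counts that kept 14683 genes for testing. GUCY1A2 and PRKG2 had at most 5 reads in any control library, and PRKG1 had more than 5 in control 5 alone. These genes passed the filter through their myopia libraries. Reads were counted in RNA-seq libraries of whole sclera, the tough white wall of the eye. The eyes came from male guinea pigs (Cavia porcellus), whose age was 2 to 3 weeks. The myopia group had both eyes fitted with lenses that induce nearsightedness, and the control group was left untreated. There were 5 libraries per group, and each was made from a single eye. The labels give no strain, no length of lens wear and no link between eyes and animals, so the spread behind the p-values is that of these eyes and may understate the spread of animals.

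Nitric oxide is made from arginine by the nitric oxide synthases, with tetrahydrobiopterin as cofactor. It binds the haem of soluble guanylyl cyclase, a dimer of an alpha and a beta subunit, which then makes cyclic GMP; NPR2 makes cyclic GMP in response to C-type natriuretic peptide instead. PDE5A degrades cyclic GMP, and PRKG1 and PRKG2 are activated by it, PRKG1 being best known for relaxing smooth muscle. In the eye the pathway is known from blood vessels, nerves, retina and the outflow tissue of the aqueous humour, and in chicks nitric oxide synthase inhibitors alter the response of the choroid to visual signals.

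In the myopic sclera 8 of these 10 genes rose, 1 fell and 1 did not pass the test (edgeR quasi-likelihood test, Benjamini-Hochberg adjusted p under 0.05). PRKG1 and GUCY1A2, which were nearly unread in the control libraries, rose most, and GUCY1B1 and PDE5A rose to more than the level of every control library. NOS3, the endothelial synthase, was the gene that fell, and NOS2 did not pass. These counts stand against a wide background: over all genes tested, 36.9% were called higher and 35.1% lower in myopia, 71.9% in all. Their median log2 fold change was 1.24, beside 0.03 over all genes tested. All 5 myopia libraries lay above all 5 control libraries for 7 of the 10 genes, where 29.8% of the genes tested did so, and below them for 1, where 28% did; together that is 8 of 10 genes without overlap, beside 57.8% of the genes tested.

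Total counts per library lay between 32050523 and 34869826, so depth was similar in all. Levels are given as CPM, the reads of a gene relative to the size of its library, scaled with TMM factors so that a gene can be compared between libraries; since no transcript lengths were used, CPM values are not compared between genes. Of the variance in log2 CPM, 77.1% lay along the first principal component. Myopia libraries scored 61.5 to 72.5 on it and control libraries 1 to 5 scored -94.6, -87.4, -81.5, -49.7 and -24.6, so that control libraries 4 and 5 lay nearest to the myopia libraries. Scaled without TMM factors, that is by total count, all genes tested had a median log2 fold change of 0.47 in place of 0.03, and 73.5% of calls were higher in place of 51.2%. Directions below are therefore relative to the TMM scale. The labels give no batch, and RNA quality was not examined. A difference in batch, RNA quality or library preparation between the groups cannot be told apart from the effect of the lenses.

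**Figure D1:**
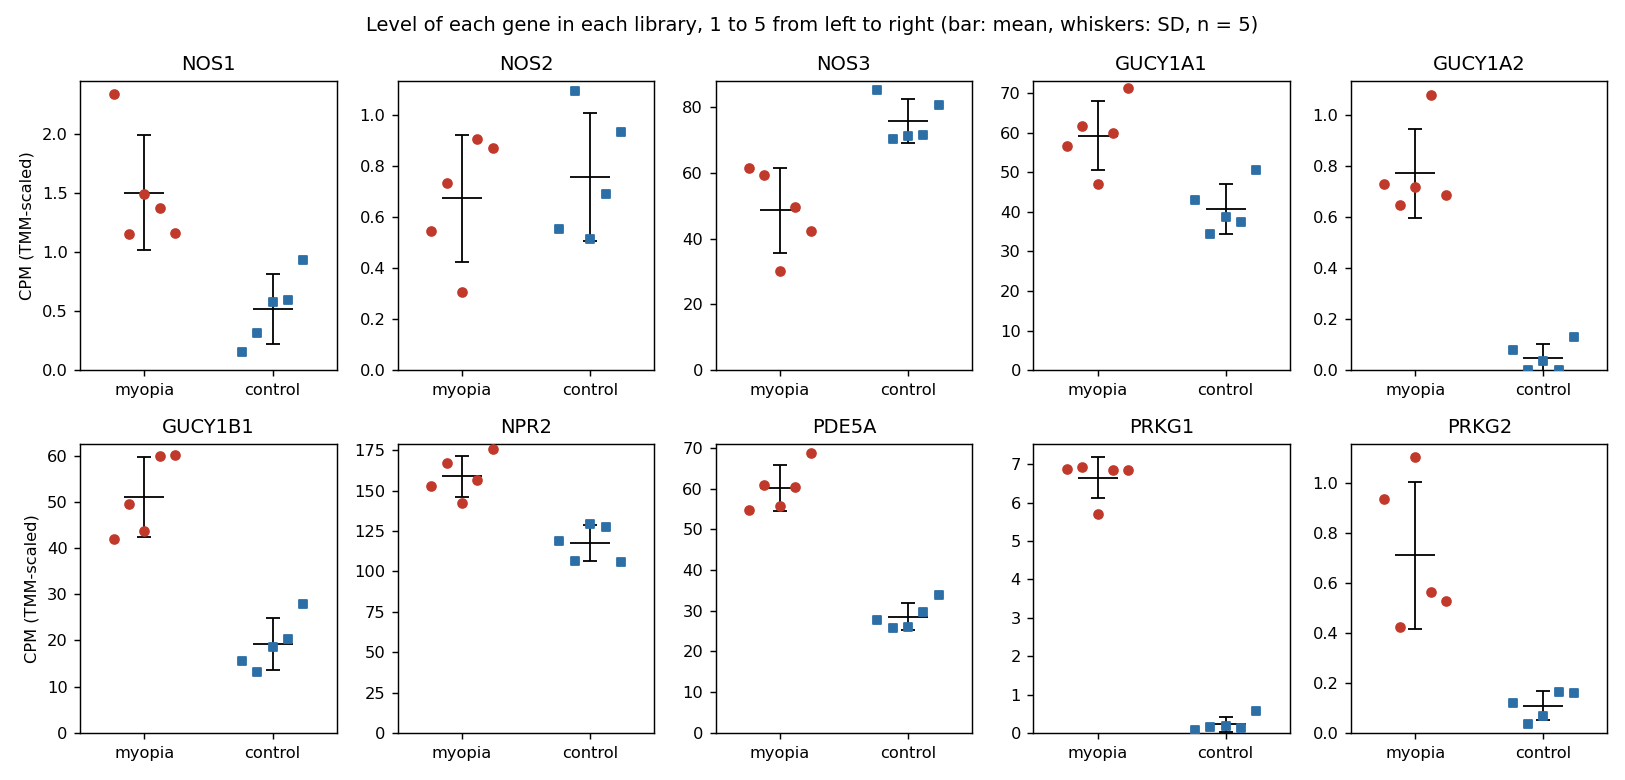
TMM-scaled CPM (linear axes from 0) of each of the 10 genes in the 5 myopia libraries (red circles) and the 5 control libraries (blue squares), with the group mean (bar) and SD (whiskers). The groups separate for every gene except NOS2 and GUCY1A1, and NOS3 is the gene whose myopia libraries all lie below control.

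Among the nitric oxide synthases, NOS1 rose, NOS3 fell and NOS2 did not pass. NOS1, the synthase of neurons and skeletal muscle, had 2.34, 1.16, 1.49, 1.37 and 1.16 CPM in myopia libraries 1 to 5, against 0.158, 0.317, 0.580, 0.590 and 0.931 CPM in control libraries 1 to 5. Every myopia library was higher than every control library, but the gap between the highest control and the lowest myopia library was small. Behind these levels stood 289 reads in the 5 myopia libraries and 77 in the 5 control libraries. The log2 fold change was 1.52 ± 0.42 (SE; adjusted p = 0.00485). Among the control libraries alone the level differed widely, with control 1 lowest and control 5 highest.

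NOS3, the synthase of vascular endothelium, had 61.6, 59.2, 30.0, 49.6 and 42.4 CPM in myopia libraries 1 to 5, against 85.2, 70.1, 71.3, 71.4 and 80.8 CPM in control libraries 1 to 5. No myopia library reached the lowest control library. The log2 fold change was -0.64 ± 0.16 (SE; adjusted p = 0.00290). With scaling by total count it was -0.20 and no longer passed (adjusted p = 0.320). NOS2, the inducible synthase of activated macrophages and other cells, had 0.308 to 0.906 CPM in myopia and 0.512 to 1.09 CPM in control, and the groups overlapped. Its log2 fold change was -0.17 ± 0.38 (SE; adjusted p = 0.700), with 129 reads in all myopia libraries and 110 in all control libraries. With scaling by total count the value was 0.28.

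Soluble guanylyl cyclase changed in all 3 measured subunits, each by a different amount. GUCY1B1, the beta subunit that carries the haem and that every common form of the enzyme needs, had 41.9, 49.5, 43.7, 59.9 and 60.2 CPM in myopia libraries 1 to 5, against 15.6, 13.3, 18.6, 20.4 and 28.0 CPM in control libraries 1 to 5. The lowest myopia library lay well above control 5, the highest control library. Its mean was 51.0 ± 8.68 CPM in myopia and 19.2 ± 5.63 CPM in control (SD, n = 5 each), a log2 fold change of 1.41 ± 0.18 (SE; adjusted p = 1.43e-05). GUCY1A1, the main alpha subunit in most tissues, had 56.6, 61.8, 47.0, 59.8 and 71.2 CPM in myopia libraries 1 to 5, against 43.1, 34.4, 38.6, 37.4 and 50.6 CPM in control libraries 1 to 5. Here the groups overlapped, since control 5 stood above myopia 3. The log2 fold change of 0.54 ± 0.13 (SE) passed the test (adjusted p = 0.00163), and 32.6% of the genes tested had a higher one.

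GUCY1A2, the alternative alpha subunit, was read 28, 23, 28, 44 and 26 times in myopia libraries 1 to 5, against 2, 0, 1, 0 and 4 times in control libraries 1 to 5. Its reads were few in both groups, and no control library came near the lowest myopia library. The summed counts, 149 in myopia and 7 in control, differed 16.1-fold after scaling, with an exact 95% interval of 7.60 to 40.6 that covers counting error only. The fitted log2 fold change was 3.90 ± 0.61 (SE; adjusted p = 7.13e-05). Without control 5 it was 4.69, since that library holds 4 of the 7 control reads.

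NPR2, the receptor cyclase for C-type natriuretic peptide, known for its part in the growth of cartilage and bone, rose by less than the soluble cyclase's beta subunit. It had 153, 167, 143, 157 and 176 CPM in myopia libraries 1 to 5, against 119, 107, 129, 127 and 106 CPM in control libraries 1 to 5. The groups did not overlap, and the control libraries did not follow the order of the first principal component: control 5 was the lowest. The log2 fold change was 0.44 ± 0.09 (SE; adjusted p = 0.000704), and 36.0% of the genes tested had a higher one.

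PDE5A, which degrades cyclic GMP and is the target of sildenafil, had 54.6, 60.8, 55.7, 60.4 and 68.8 CPM in myopia libraries 1 to 5, against 27.7, 25.8, 26.0, 29.6 and 33.8 CPM in control libraries 1 to 5. Both groups were tight and lay far apart. The mean was 60.1 ± 5.61 CPM in myopia and 28.6 ± 3.29 CPM in control (SD, n = 5 each), a log2 fold change of 1.07 ± 0.10 (SE; adjusted p = 1.10e-06). Of the genes tested, 18.3% had a higher one.

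Both cyclic GMP-dependent kinases rose. PRKG1, the kinase of smooth muscle, platelets and some neurons, was read 265, 246, 222, 280 and 260 times in myopia libraries 1 to 5, against 2, 4, 5, 4 and 18 times in control libraries 1 to 5. In CPM the myopia libraries ran from 5.70 to 6.93 and the control libraries from 0.0789 to 0.578. The gene was close to unread in the control libraries and modestly read in the myopia libraries. The summed counts of 1273 in myopia and 33 in control differed 29.1-fold after scaling (exact 95% interval 20.6 to 42.5, counting error only). The fitted log2 fold change was 4.86 ± 0.39 (SE; adjusted p = 4.21e-07), and 0.150% of the genes tested had a higher one. Control 5 held 18 of the 33 control reads, and without it the log2 fold change was 5.63.

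PRKG2, the kinase best known from intestine, kidney and growth plate, was read 36, 15, 43, 23 and 20 times in myopia libraries 1 to 5, against 3, 1, 2, 5 and 5 times in control libraries 1 to 5. The groups did not overlap, and myopia 1 and 3 stood above the other myopia libraries. The summed counts of 137 in myopia and 16 in control differed 6.46-fold after scaling (exact 95% interval 3.84 to 11.6, counting error only). The fitted log2 fold change was 2.65 ± 0.49 (SE; adjusted p = 0.000287). Without control 4 and 5, a choice made after the data were seen, it was 3.24.

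**Figure D2:**
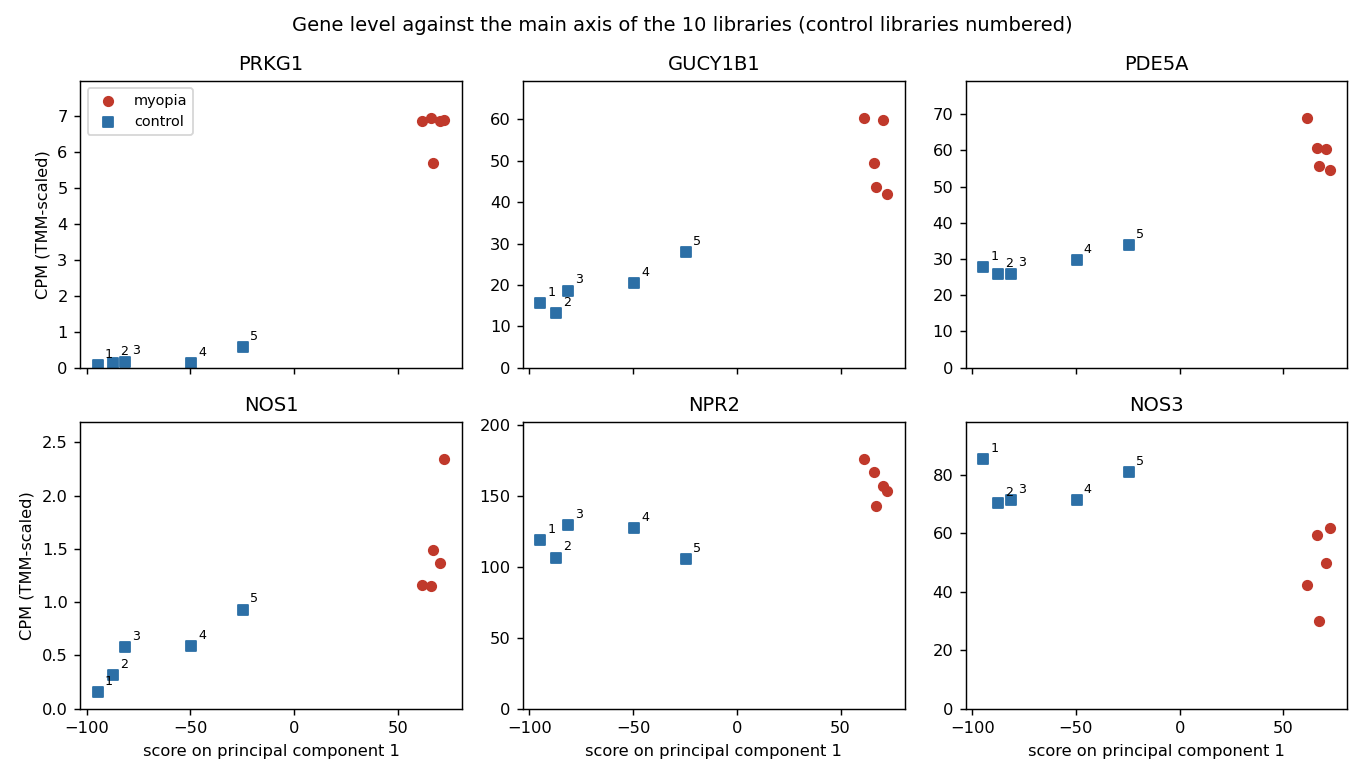
TMM-scaled CPM of PRKG1, GUCY1B1, PDE5A, NOS1, NPR2 and NOS3 (vertical, linear from 0) against each library's score on the first principal component of log2 CPM over all genes tested (horizontal, no unit). Myopia libraries are red circles and control libraries are blue squares with their numbers; GUCY1B1, PDE5A and NOS1 are highest in control 5, the control library nearest to the myopia libraries, whereas NPR2 is lowest there.

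The position of a library along the main axis moved with several of these genes inside the untreated group. Control 5 held the highest control level of NOS1, GUCY1A1, GUCY1A2, GUCY1B1, PDE5A and PRKG1, while NPR2 was lowest there and NOS3 was highest in control 1. The part of this axis in the difference between the groups was not tested. Without control libraries 4 and 5, again chosen after the data were seen, 8 of the 10 genes were higher and 1 lower, as with all libraries. In that setting 5734 of all 14957 genes tested were called higher and 5185 lower. The log2 fold change was then 1.70 for GUCY1B1, 1.19 for PDE5A, 0.44 for NPR2 and -0.62 for NOS3.

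Ratios of reads between 2 genes of the pathway within a library do not depend on how libraries are scaled. For 5 such pairs the groups were compared by an exact two-sided permutation test over the libraries, whose smallest possible p is 0.00794, with adjustment over the 5. A ratio also depends on the lengths of both transcripts, so its difference between groups can be read but its level is not a ratio of subunits. Each difference follows mostly from the log2 fold changes of its 2 genes given above. Other gene pairs were not tested, while 57.8% of the single genes tested had no overlap between the groups. The log2 ratio of GUCY1A1 to GUCY1B1 was 0.43, 0.32, 0.11, -0.00059 and 0.24 in myopia libraries 1 to 5, against 1.47, 1.37, 1.05, 0.88 and 0.86 in control libraries 1 to 5. Every myopia library lay below every control library. The means were 0.22 ± 0.17 in myopia and 1.12 ± 0.28 in control (SD, n = 5 each), a difference of -0.90 (exact permutation p = 0.00794, adjusted p = 0.00992).

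The alternative alpha subunit gained on the main one. The log2 ratio of GUCY1A2 to GUCY1A1 averaged -6.25 ± 0.37 in myopia and -9.77 ± 1.23 in control (SD, n = 5 each; pseudocount 0.5), a difference of 3.52 (exact permutation p = 0.00794, adjusted p = 0.00992). With a pseudocount of 5 the difference was 1.51. The log2 ratio of PRKG1 to PDE5A averaged -3.17 ± 0.14 in myopia and -7.22 ± 0.86 in control, a difference of 4.04 with the same exact permutation p (n = 5 each). With a pseudocount of 5 it was 3.14. As GUCY1A2 and PRKG1 passed the filter on low counts through their myopia libraries, a rise in both ratios was largely set in advance.

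NPR2 was lower in myopia relative to GUCY1B1; its ratio to GUCY1A1 was not tested, and the log2 fold changes were 0.44 for NPR2 and 0.54 for GUCY1A1. The log2 ratio of NPR2 to GUCY1B1 averaged 1.65 ± 0.19 in myopia and 2.66 ± 0.44 in control (SD, n = 5 each), a difference of -1.005 (exact permutation p = 0.00794, adjusted p = 0.00992), and no library of one group entered the range of the other. The log2 ratio of PDE5A to GUCY1B1 averaged 0.25 ± 0.15 in myopia and 0.62 ± 0.28 in control (SD, n = 5 each). In this ratio the groups overlapped, and the difference of -0.37 passed with all libraries (exact permutation p = 0.0317, adjusted p = 0.0317). It did not pass without control 2 (-0.28, adjusted exact p = 0.0556), without myopia 2 (-0.38, adjusted exact p = 0.0556), without myopia 4 (-0.31, adjusted exact p = 0.0794) or without myopia 5 (-0.36, adjusted exact p = 0.0714).

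**Figure D3:**
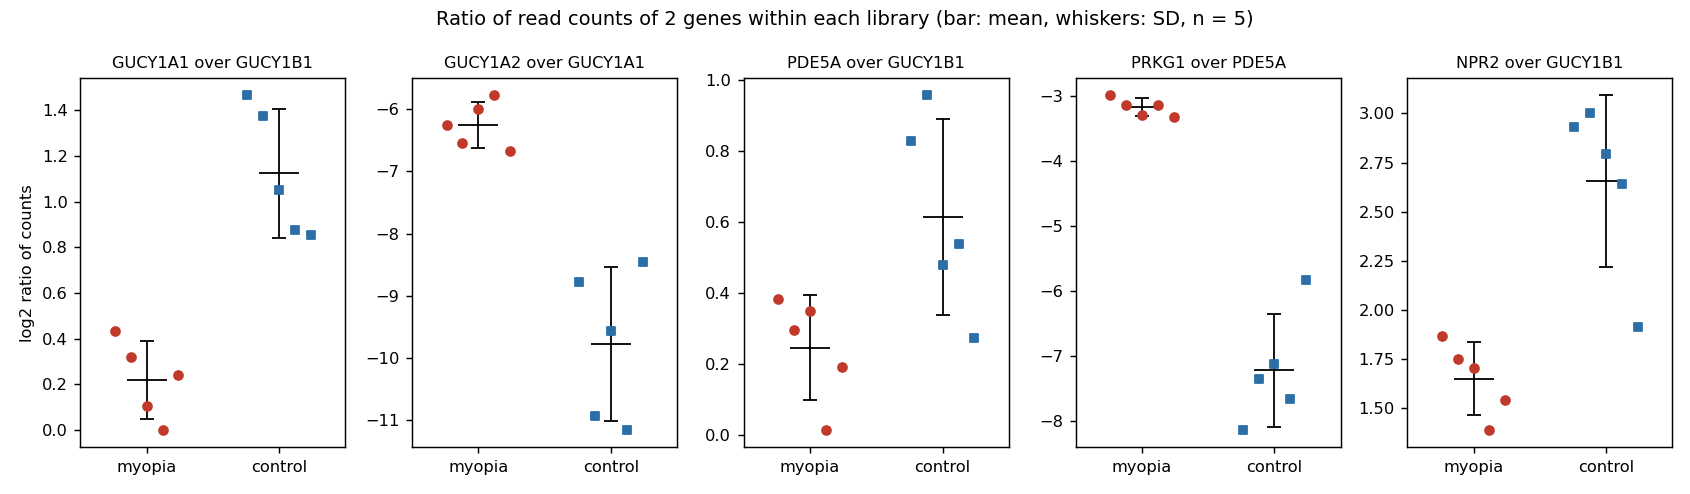
Log2 ratio of read counts between 2 genes in each myopia library (red circles) and each control library (blue squares), with group mean (bar) and SD (whiskers); the vertical axes do not start at 0. The groups are apart for 4 of the 5 ratios and overlap for PDE5A over GUCY1B1. How often other gene pairs separate the groups was not computed, and 57.8% of the single genes tested did so.

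Related genes were read from 5 further lists of 78 genes, of which 74 stood in the table and 65 were tested. Of these, 25 rose and 28 fell, where 36.9% of all genes tested were called higher and 35.1% lower. The median log2 fold change of the 65 was -0.20, beside 0.03 over all genes tested. With scaling by total count 31 rose and 15 fell, where 7631 of all 14683 genes tested were called higher and 2752 lower. The counts for each list below stand against these same shares.

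Of 12 tested genes for the substrate and cofactor of the synthases, 8 fell and 1 rose, and the median log2 fold change was -0.69. With scaling by total count 4 fell and 3 rose. QDPR and SPR, enzymes that regenerate and make tetrahydrobiopterin, both fell (log2 fold change -1.14 ± 0.12 and -0.65 ± 0.10, SE; adjusted p = 2.86e-06 and 7.48e-05 by edgeR). SPR did not pass with scaling by total count (adjusted p = 0.0538 by edgeR). ASS1 and ASL, which remake arginine from citrulline, had log2 fold changes of -0.90 ± 0.10 and -0.74 ± 0.12 (SE). ASS1 averaged 29.0 ± 3.09 CPM in myopia and 54.1 ± 6.01 CPM in control (SD, n = 5 each). The 1 gene that rose was SLC7A2, an arginine transporter named after its value was seen, at 30.3 ± 9.64 CPM in myopia and 12.2 ± 3.03 CPM in control.

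Of 13 tested regulators of the synthases and genes that handle nitric oxide, 7 fell and 4 rose, and the median log2 fold change was -0.66; with scaling by total count 6 fell and 5 rose. CYGB (cytoglobin) and CYB5R3, a haem protein that consumes nitric oxide and a reductase of haem proteins, had log2 fold changes of -1.13 ± 0.11 and -1.51 ± 0.16. CYB5R3 averaged 289 ± 10.9 CPM in myopia and 821 ± 213 CPM in control (SD, n = 5 each). PRMT1, which makes the precursor of the endogenous synthase inhibitor ADMA, and NOSIP, a protein that binds NOS3, had log2 fold changes of -0.83 ± 0.08 and -1.31 ± 0.14. DDAH2 and DDAH1 were named after their values were seen. DDAH2 fell, with a log2 fold change of -1.12 ± 0.15 (SE), and DDAH1 did not pass (adjusted p = 0.317 by edgeR). The 4 that rose, named after their values were seen, were NOSTRIN, which also binds NOS3, by 1.72 ± 0.23, the chaperone HSP90AA1 by 0.88 ± 0.13, the S-nitrosoglutathione reductase ADH5 by 0.37 ± 0.09 and the caveolar protein CAV1 by 0.33 ± 0.12 (log2, SE).

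The ligand and the clearance receptor of the natriuretic peptide branch moved in opposite directions. NPPC, which encodes C-type natriuretic peptide, the ligand of NPR2, had 5.17, 11.4, 9.57, 6.88 and 9.87 CPM in myopia libraries 1 to 5, against 11.95, 16.2, 34.0, 23.8 and 16.2 CPM in control libraries 1 to 5. Every myopia library was below every control library, with only a narrow gap between myopia 2 and control 1. The log2 fold change was -1.25 ± 0.28 (SE; adjusted p = 0.00157). NPR3, the receptor that removes natriuretic peptides, had 63.6, 60.8, 73.7, 71.2 and 95.9 CPM in myopia libraries 1 to 5, against 29.1, 24.1, 27.8, 35.5 and 39.3 CPM in control libraries 1 to 5. Its groups were far apart, with a log2 fold change of 1.23 ± 0.15 (SE; adjusted p = 8.59e-06).

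NPR1, the receptor cyclase for atrial and brain natriuretic peptides, overlapped between the groups at 36.6 ± 6.90 CPM in myopia and 40.4 ± 6.44 CPM in control (SD, n = 5 each; log2 fold change -0.14 ± 0.14, adjusted p = 0.384 by edgeR). Of the 7 tested genes of this list 4 fell and 1 rose, and with scaling by total count 2 fell and 1 rose. FURIN, a protease that processes the precursor of C-type natriuretic peptide, had a log2 fold change of -0.35 ± 0.09 (adjusted p = 0.00258), which became 0.09 with scaling by total count. GUCA1A, an activator of photoreceptor guanylyl cyclase, had a log2 fold change of -1.48 ± 0.37 (adjusted p = 0.00271). Photoreceptor markers moved with it: 7 of 10 fell and 0 rose, and their summed level was 55.8 to 236 CPM in myopia and 246 to 422 CPM in control. With scaling by total count 5 of these markers fell and 0 rose. Their part in the GUCA1A difference was not tested. NPPA, the atrial peptide, and the cyclases GUCY2C, GUCY2D, GUCY2F and GUCY1B2 had too few reads to be tested.

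Of 11 tested genes listed as phosphodiesterases and exporters of cyclic GMP, 7 rose and 3 fell, and the median log2 fold change was 0.73. The same 7 to 3 split became 7 to 1 with scaling by total count. PDE3A, a phosphodiesterase of cyclic AMP that cyclic GMP inhibits, averaged 45.8 ± 4.53 CPM in myopia and 23.6 ± 3.72 CPM in control (SD, n = 5 each; log2 fold change 0.96 ± 0.12, adjusted p = 7.94e-06 by edgeR). PDE1C, a calcium-activated phosphodiesterase, had 4.90 to 6.26 CPM in myopia and 0.247 to 2.09 CPM in control. Its control libraries were highest in control 5, and its log2 fold change was 2.52 ± 0.42 (SE). ABCC5, an exporter of cyclic nucleotides, rose by 0.73 ± 0.08, and PDE6D, a carrier of prenylated proteins first found with the rod phosphodiesterase, had a log2 fold change of -0.74 ± 0.09. The phosphodiesterases PDE2A and PDE9A, named after their values were seen, also fell, although their groups overlapped. Their log2 fold changes were -0.60 ± 0.14 and -0.51 ± 0.13 (SE).

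Of 22 tested kinase substrates and other cyclic GMP targets, 12 rose and 6 fell, and the median log2 fold change was 0.59; with scaling by total count 15 rose and 2 fell. PPP1R12A, the myosin phosphatase subunit through which PRKG1 relaxes smooth muscle, had 101, 99.5, 91.2, 108 and 115 CPM in myopia libraries 1 to 5, against 26.7, 20.2, 23.7, 25.4 and 31.6 CPM in control libraries 1 to 5. Both groups were tight, and the log2 fold change was 2.01 ± 0.12 (SE; adjusted p = 6.39e-08). ITPR1, the calcium release channel that PRKG1 restrains, averaged 76.4 ± 2.14 CPM in myopia and 25.7 ± 7.09 CPM in control (SD, n = 5 each). KCNMB1, a subunit of the large-conductance potassium channel of smooth muscle, averaged 20.8 ± 4.06 CPM in myopia and 7.51 ± 0.980 CPM in control. MYLK, the myosin light chain kinase, averaged 153 ± 20.7 CPM in myopia and 61.4 ± 20.0 CPM in control, and its control libraries were highest in control 5 at 94.9 CPM. The log2 fold changes of ITPR1, KCNMB1 and MYLK were 1.57 ± 0.15, 1.47 ± 0.15 and 1.31 ± 0.18 (SE).

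**Figure D4:**
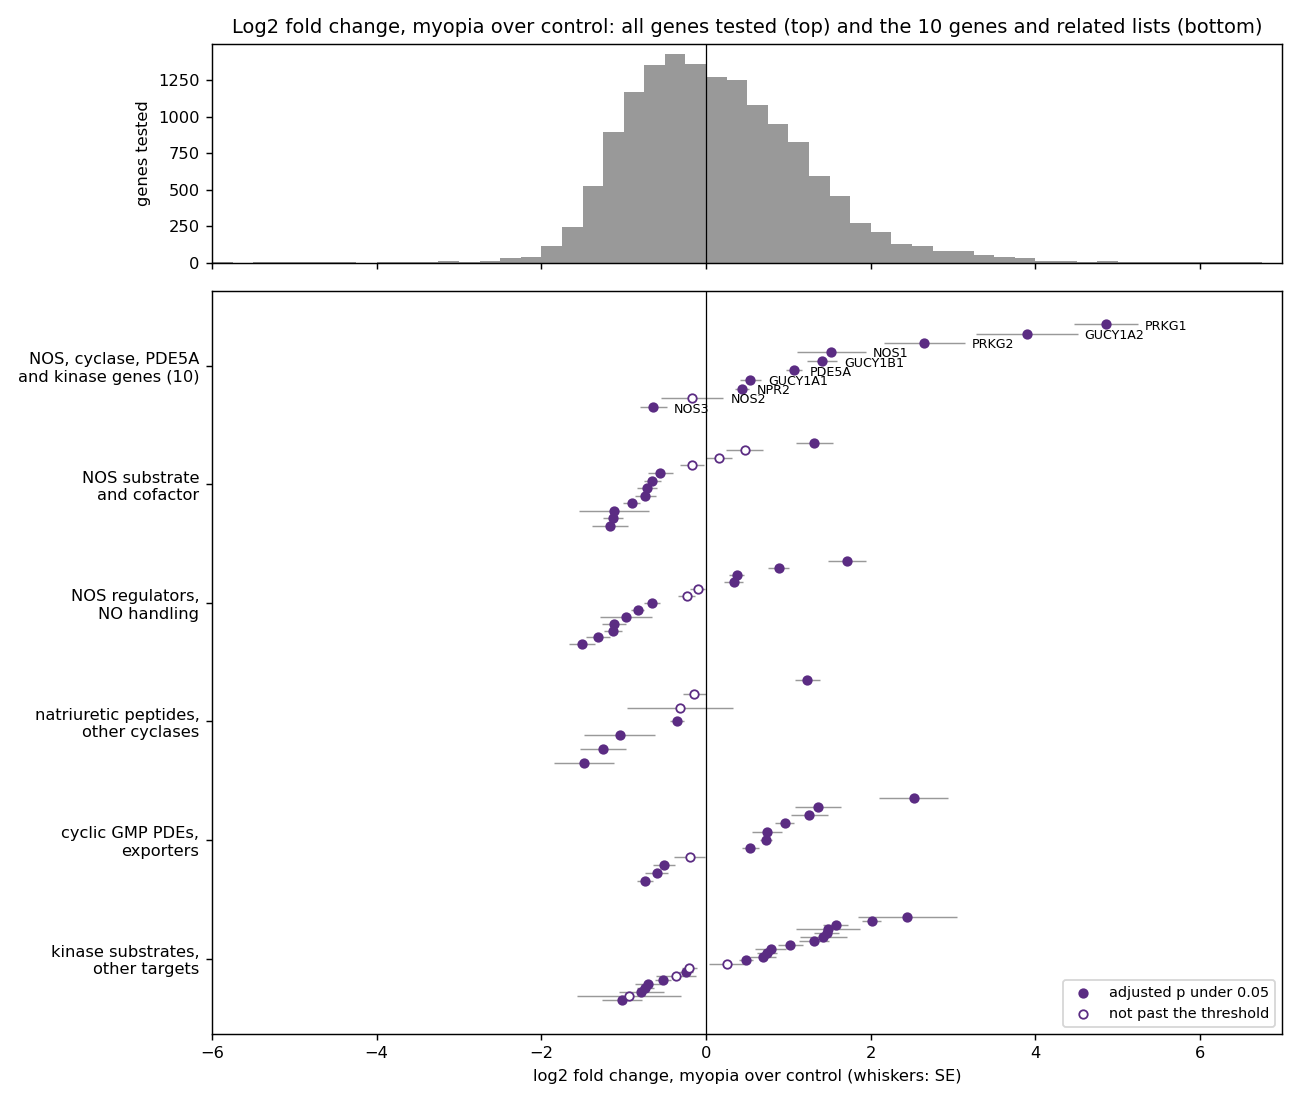
Log2 fold change of myopia over control: counts of all 14683 genes tested per bin (top), and below it the 10 genes and the tested genes of the 5 related lists, 1 point per gene with its SE, filled where the adjusted p was under 0.05. PRKG1 and GUCY1A2 lie in the far right tail of all genes, and the substrate and cofactor list lies mostly left of 0.

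Several of these genes are carried by blood vessels, nerve, muscle or macrophages, and in whole tissue fewer cells of a type and less RNA per cell cannot be told apart. Markers of smooth muscle and pericytes summed to 1702 to 2519 CPM in myopia and 1724 to 2360 CPM in control, and their part in the rises of PRKG1, PDE5A and the soluble cyclase was not tested. Within that list 2 of 11 genes rose and 3 fell, with 6 rising and 1 falling under scaling by total count. By mean CPM it was led by ACTA2, at 424 ± 120 CPM in myopia and 513 ± 112 CPM in control (SD, n = 5 each), which did not pass, and by TAGLN, at 311 ± 67.3 CPM in myopia and 489 ± 79.9 CPM in control, which fell (log2 fold change -0.65 ± 0.15). RGS5, a pericyte gene named after its value was seen, averaged 360 ± 89.8 CPM in myopia and 88.6 ± 39.2 CPM in control. Other markers of the list were also named after their values were seen. KCNJ8 rose (log2 fold change 0.53 ± 0.22, SE), while CNN1 (-1.20 ± 0.23) and SMTN (-0.47 ± 0.11) fell. PDGFRB (-0.10), CSPG4 (0.08) and NOTCH3 (-0.23) did not pass.

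Endothelium markers summed to 908 to 1343 CPM in myopia and 1130 to 1386 CPM in control, and the groups overlapped. Of 10 such markers 3 rose and 4 fell, and 5 rose and 0 fell under scaling by total count. VWF averaged 331 ± 81.3 CPM in myopia and 464 ± 57.0 CPM in control and fell (log2 fold change -0.49 ± 0.16), whereas PECAM1, at 302 ± 39.6 CPM in myopia and 334 ± 38.7 CPM in control, did not pass. The 3 that rose, named after their values were seen, were TEK by 1.25 ± 0.22, KDR by 1.02 ± 0.18 and EMCN by 0.43 ± 0.12 (log2, SE). VWF was also among the 3 genes whose log2 CPM was most like that of NOS3 over the 10 libraries (Pearson r = 0.945), the others being NPTX1 (r = 0.962) and MALL (r = 0.945). The part of endothelial RNA in the fall of NOS3 was not tested.

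Macrophage markers summed to 365 to 586 CPM in myopia and 1239 to 1922 CPM in control. Of 9 tested 7 fell, and with scaling by total count 7 fell and 1 rose. The list was led by C1QA at 121 ± 27.5 CPM in myopia and 568 ± 149 CPM in control and by C1QB at 78.6 ± 17.3 CPM in myopia and 341 ± 89.0 CPM in control. MRC1 (log2 fold change 0.27) and CD163 (-0.28), named after their values were seen, did not pass. The part of macrophage markers in the NOS2 level was not tested. Skeletal muscle markers, which bear on NOS1, summed to 1991 to 4565 CPM in myopia and 2432 to 6309 CPM in control, with 2 of 11 higher and 4 lower. Nerve and Schwann cell markers summed to 2725 to 7318 CPM in myopia and 4091 to 6439 CPM in control, with 2 of 9 higher and 3 lower. For both lists the groups overlapped in the sum, and their part in the NOS1 difference was not tested. ACTA1, at 532 ± 226 CPM in myopia and 1084 ± 408 CPM in control, and MYH4, at 861 ± 202 CPM in myopia and 615 ± 288 CPM in control, led the muscle list (SD, n = 5 each). ACTA1 fell and MYH4 did not pass. The 2 muscle genes that rose, named after their values were seen, were TTN by 2.07 ± 0.37 and NEB by 2.28 ± 0.33 (log2, SE). Of the nerve markers, MBP had 2041 ± 976 CPM in myopia and 2531 ± 753 CPM in control (SD, n = 5 each) and did not pass. With scaling by total count, 3 skeletal muscle markers were higher and 1 lower, and 4 nerve and Schwann cell markers were higher and 1 lower.

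Fibroblast markers, which mark the main cells of the sclera, were abundant. The list summed to 71618 to 98896 CPM in myopia and 127072 to 159980 CPM in control, and 2 of 9 rose and 5 fell (3 and 3 with scaling by total count). COL1A1 and COL1A2 were its genes of highest CPM. COL1A1 made up most of the difference in the sum, with means of 35547 CPM in myopia and 82710 CPM in control. COL1A2 did not pass (log2 fold change -0.29 ± 0.14, SE). The 2 that rose, named after their values were seen, were PDGFRA by 0.64 ± 0.14 and DCN by 0.42 ± 0.17 (log2, SE). Red blood cell markers, led by HBB and HBA, fell in 4 of 4 cases, with summed levels of 100.1 to 456 CPM in myopia against 2503 to 10558 CPM in control, and melanocyte and pigment epithelium markers, led by PMEL and TYRP1, at 48.3 to 221 CPM in myopia and 146 to 430 CPM in control, rose in 2 of 8 cases and fell in 3 (2 and 1 with scaling by total count). No list had a marker in the table with 0 reads in every library.

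**Figure D5:**
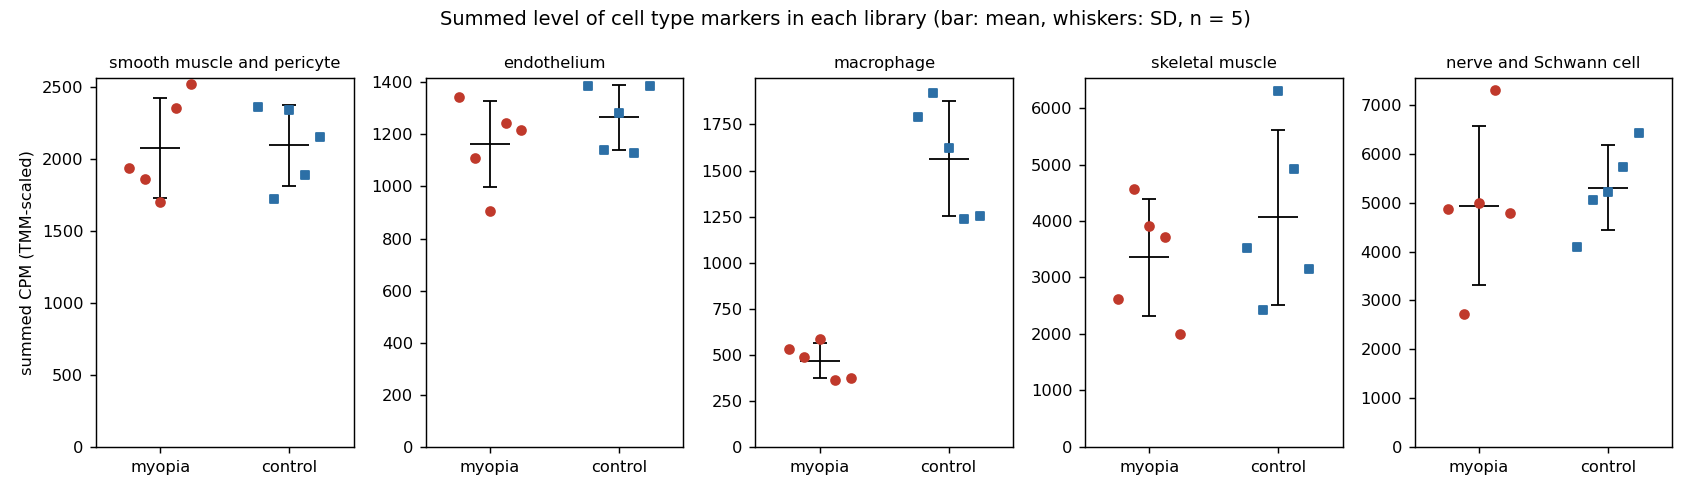
Summed TMM-scaled CPM (linear axes from 0) of markers of 5 cell types that can carry these genes, in the myopia libraries (red circles) and the control libraries (blue squares), with group mean (bar) and SD (whiskers). The groups overlap for smooth muscle, endothelium, skeletal muscle and nerve markers and are apart for macrophage markers.

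The genes whose log2 CPM ran most like each of these over the 10 libraries are given as a description, since the difference between the groups sets most of such a correlation. GUCY1B1 ran closest to MYLK (Pearson r = 0.991), ANGPT2 (r = 0.988) and KIF21A (r = 0.987). PRKG1 ran closest to DCBLD2 (r = 0.998), RAPGEF6 (r = 0.997) and IL6ST (r = 0.996), and of these IL6ST had a fold change of similar size, with a log2 fold change of 4.72. PDE5A ran closest to SS18 (r = 0.997), MARK3 (r = 0.995) and LPGAT1 (r = 0.994). GUCY1A1 ran closest to the endothelial gene EMCN (r = 0.956), METTL4 (r = 0.954) and the less read of the lines named COL4A2 (r = 0.945). NPR2 ran closest to KIFC2 (r = 0.984), FNBP4 (r = 0.979) and SLTM (r = 0.974), and NOS2 to SLC6A15 (r = 0.872), CASP2 (r = 0.849) and ZNF395 (r = 0.789). NOS1 ran closest to RFK (r = 0.989), ALDH1A3 (r = 0.975) and PRMT6 (r = 0.975). GUCY1A2 ran closest to GABPB2 (r = 0.991), OGFOD1 (r = 0.987) and LPP (r = 0.987), and PRKG2 to KPNA3, MYBL1 and CHRNA7 (r = 0.979 each).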

How the data were processed

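RNA-seq libraries of scleral tissue were deposited as 1 table of raw read counts per gene symbol, with 1 column per library. The authors' counts are whole numbers and were used as deposited. How reads were aligned and counted, with which annotation and whether by strand, is not stated in the sources used here. Reads shared by overlapping or antisense genes may therefore be counted for either. Per the submitters' processing notes the builds were GRCm38 and mm10, both of mouse, with no role named; no coordinate or length is therefore given. All 10 symbols are in a guinea pig gene table.

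Of 18079 lines, 437 carry no symbol (0.751% to 0.824% of counts in myopia, 1.18% to 1.69% in control) and were left out. Lines that share a symbol were tested separately with edgeR 4.0.16 in R 4.3.3 (filterByExpr with a minimum count of 10, TMM factors, glmQLFit with robust dispersion, glmQLFTest), with Benjamini-Hochberg adjustment over all 14683 genes. In the gene lists a symbol on several lines is represented by its line of highest mean count. HSP90AA1 and CSPG4 each stand on 2 lines, and their less read lines are not described. The SE was taken as the log2 fold change over the root of the F statistic. Within-library ratios used counts plus 0.5 and an exact permutation test. Intervals of summed counts are exact binomial at 95% and cover counting error only. No 2 replicates matched within sampling noise (chi-square over degrees of freedom, 18.1 to 117). The gene-wise test was checked on simulated counts of 14683 genes, with 100 changed 2-fold and 100 changed 4-fold. It recovered 71% and 97% of these, with 0 in the wrong direction, and called 5 unchanged genes. In the data 10561 genes were called, far more than were changed in the simulation. It therefore does not check the scaling or the error rate in these data. The 10 genes, the lists and the tests were chosen with earlier results of these data known. The text names all 10 genes, up to 4 called genes per related list by smallest p with NPPC, NPR1 and NPR3, the 2 markers of highest mean CPM per list (some are not reported here), and the 3 genes most like each of the 10. Alternatives were RLE, upper quartile and total count scaling, 2 other filters, DESeq2 1.42.0, limma 3.58.1 (voom, with and without quality weights), non-robust dispersion, replicate number as a block, sva 3.50.0 with 1 surrogate variable, each library left out, and control 4 and 5 left out.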

Additional observations from a re-analysis of the deposited data

Results flagged for a closer look

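In 5 of 72 groups of 5 libraries checked, 1 library stood apart from the other four by Dixon's criterion; chance flags about 1 in 20 groups. NOS1 was highest in myopia 1 at 2.34 CPM, with the next myopia library at 1.49 CPM. GUCY1A2 was highest in myopia 4 at 1.08 CPM, with the next at 0.727 CPM. PRKG1 was lowest in myopia 3 at 5.70 CPM, with the next at 6.85 CPM, and within control it was highest in control 5 at 0.578 CPM, with the next at 0.171 CPM. SPR was lowest in control 5 at 31.3 CPM, with the next control library at 37.1 CPM.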

How the results depend on the processing

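Over 22 alternatives each, 10103 to 11180 genes were called, 46 to 56 genes of the related lists and 7 to 9 of the 10 genes; 7 was reached with at least 1 CPM in 5 libraries, where 7 of the 10 were tested. Leaving out 1 library gave 10133 to 10854, 49 to 55 and 9. The log2 fold changes of the 8 genes that rose kept their sign and call in each alternative that tested them; with at least 1 CPM in 5 libraries 6 of the 8 were tested. NOS2 turned to 0.28 with total count scaling, 0.0093 without control 2 and 0.015 without myopia 3, with -0.30 to 0.015 over the libraries left out. Libraries that share a number did not vary together (correlations -0.129 to 0.013, and 0 libraries correlated best with their own number). With a replicate block 10103 genes and 9 of the 10 were called, and the 5 ratios had the same differences, -0.90, 3.52, -0.37, 4.04 and -1.005 in the order GUCY1A1 to GUCY1B1, GUCY1A2 to GUCY1A1, PDE5A to GUCY1B1, PRKG1 to PDE5A and NPR2 to GUCY1B1. The smallest p that 5 sign-flipped pairs allow is 0.0625, so none could pass. Leaving out 1 library gave -0.97 to -0.82, 3.18 to 3.85, -0.45 to -0.28, 3.81 to 4.39 and -1.19 to -0.92 for these ratios. Few reads limit the values of NOS1, NOS2, PRKG2 and GUCY1A2, and few control reads limit the fold change and ratio of PRKG1.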
